A study of Mus musculus with 6 samples.

Results

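The 6 noncoding RNA rows described here are Rn45s, Malat1, Neat1, Rmrp, Gas5 and Snhg1, taken by symbol from the 23420 gene rows of a table of RNA-seq counts from tumor-infiltrating regulatory T cells (Tregs). All 6 were found, and all 6 passed the filter on low counts that left 10352 rows to test. They were chosen by their count level in these same libraries, so their levels and ranks are a description and were not tested. The cells were GFP-positive Tregs, labelled FoxP3+, from BALB/c Foxp3-GFP mice carrying tumors of T11, a transplanted line that models claudin-low triple-negative breast cancer. The anti-PD-1 group comprised 3 libraries, numbered 4, 5 and 6, from mice given 200 µg of the antibody J43 intraperitoneally 2 times a week. The untreated group comprised 3 libraries, numbered 1, 2 and 3, from mice with the same tumor and no antibody. In both groups 10000 tumor cells were injected, tumors were taken at 150 mm2, dissociated tumors were enriched for lymphocytes before the GFP sort, and libraries were built with the NuGEN Ovation SoLo kit. The labels give no control antibody and no age. Nothing in them ties each library to its own mouse, so p-values here measure only library-to-library spread, part of which may be technical.

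The 6 RNAs come from different parts of RNA metabolism. Rn45s is the annotation's entry for the 45S precursor, which RNA polymerase I transcribes and which is cut into ribosomal RNAs of both ribosomal subunits. Rmrp is the RNA subunit of RNase MRP, an enzyme related to RNase P that cuts the ribosomal RNA precursor in the internal spacer, and it is a short RNA made by RNA polymerase III. Malat1 is a long RNA retained in nuclear speckles, where splicing factors gather, and Neat1, its neighbor on the chromosome, is the scaffold of paraspeckles. Gas5 and Snhg1 are host genes: their introns carry box C/D snoRNAs, which guide 2′-O-methylation of ribosomal RNA, while the spliced RNA that remains is a substrate of nonsense-mediated decay. Gas5 was first isolated in growth-arrested cells and its level is known to respond to translation, because its first exon opens with a terminal oligopyrimidine tract like those of ribosomal protein genes.

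The sequence of Rmrp is shown because it is the shortest of the 6 RNAs and the only one whose libraries did not overlap between the groups. The starts of Gas5 and Snhg1 are shown because a run of pyrimidines at the start is known from host genes and ribosomal protein genes, and the pair differ in its length. The Rmrp transcript Rmrp-201 (GENCODE M21, GRCm38, the assembly of mm10) lies at chr4:43492788-43493058 on the minus strand, has 271 bases and a GC content of 64.2%, and is printed with no capitals. The Gas5 window (RefSeq, GRCm38.p6) is chr1:161035116-161035215 and the Snhg1 window is chr19:8723437-8723536, both on the plus strand, with the first 50 bases before the annotated start. Capitals mark the unbroken run of C and T from the annotated start.
Rmrp: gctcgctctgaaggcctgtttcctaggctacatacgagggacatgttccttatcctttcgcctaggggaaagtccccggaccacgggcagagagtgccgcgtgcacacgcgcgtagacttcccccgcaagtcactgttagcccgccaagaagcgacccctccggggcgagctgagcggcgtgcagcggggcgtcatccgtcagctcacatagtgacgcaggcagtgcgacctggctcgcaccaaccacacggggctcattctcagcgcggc
Gas5: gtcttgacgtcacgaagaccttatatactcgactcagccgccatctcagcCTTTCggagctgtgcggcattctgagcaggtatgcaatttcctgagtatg
Snhg1: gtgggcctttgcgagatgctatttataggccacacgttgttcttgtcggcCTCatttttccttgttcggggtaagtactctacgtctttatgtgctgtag
In Gas5 the run is CTTTC, with 5 bases. In Snhg1 it is CTC, with 3 bases. A run that opens with C and continues with at least 4 more C or T bases at the annotated start was found on the gene's strand in 823 of 32851 RefSeq promoter windows (2.51%), in 14 of 77 windows of ribosomal protein genes (18.2%) and in 3 of 22 windows of the listed host genes (13.6%). The match is a description of the annotated start, which may differ from the start used in these cells.

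In the deposited mm10 annotation Rn45s is a single exon of 5833 bases at chr17:39842997-39848829 on the plus strand, where GENCODE places Gm26917 and Gm42418 on the same strand and AY036118 and an rRNA entry, CT010467.1, on the other. The 45S genes are repeated many times in the genome, and this row is a single annotated copy, so its count is uncertain as a measure of the whole family. Malat1 is a single exon of 6982 bases at chr19:5795690-5802671 on the minus strand. Neat1 lies 39630 bases away at chr19:5842302-5845478 on the same strand, with 3177 bases. RefSeq gives Neat1 a length of 20773 bases, so the deposited row covers the part next to the start that short and long isoforms share and cannot tell them apart. Rmrp is a single exon of 275 bases at chr4:43492785-43493059 on the minus strand, opposite Ccdc107 in GENCODE. Gas5, at chr1:161035166-161038537 on the plus strand, has 4 exons and 2554 bases, of which a single exon takes 2382. That exon runs across what other models give as introns and holds 6 of the 10 GENCODE snoRNA entries in the gene's span, so the Gas5 row can count unspliced and intronic fragments with the spliced RNA. Fragments over Mir5117, which shares 91 bases with that exon, went to neither row. Snhg1, at chr19:8723487-8726326 on the plus strand, has 10 exons and only 476 bases, and none of the 8 snoRNA entries in its span lies within its exons. The counting was set to read strand, so the antisense entries at Rn45s and Rmrp were not added to these rows by the command given.

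Total counts were 5219249, 4766533 and 4836408 in the anti-PD-1 libraries and 6686774, 5470816 and 5825110 in the untreated libraries, so every untreated library was the deeper. In a multidimensional scaling of the tested genes, untreated library 1 stood apart at 2.40 on dimension 1 (35.7% of variance), and the other 5 libraries lay between -0.66 and -0.39. Foxp3, the factor that defines Tregs, had 549, 569 and 463 CPM (a row's count scaled to a total of 1e+06 for all counts) in the anti-PD-1 libraries and 430, 447 and 461 CPM in untreated libraries. The summed CPM of 7 Treg and T cell markers was 5723 to 6538 in anti-PD-1 libraries and 6907 to 6924 in untreated libraries. After TMM scaling the groups did not overlap for 2 of the 7 on the higher side and 2 on the lower side. Over all tested genes those shares were 7.18% and 6.44%. The lower ones were Ctla4, with 1194.5 to 1334.7 CPM in anti-PD-1 and 1525.9 to 1764.4 CPM in untreated libraries, and Ikzf2. Ikzf2 had 1686.6 to 1938.8 CPM with treatment and 2045.6 to 2204.2 CPM without. Of 9 neutrophil markers, 6 (Camp, Csf3r, Cxcr2, Lcn2, Retnlg and S100a9) were at 0 in every library, S100a8 and Ngp were above 0 in 1 library each, and only Ltf was found in all 6 libraries, with 1.53, 2.52 and 3.93 CPM in anti-PD-1 libraries, against 9.57, 18.6 and 17.9 CPM in untreated libraries. Macrophage, B cell, CD8 and NK, erythroid, and tumor and stroma marker sums overlapped between the groups. The tumor and stroma sum, 1049 to 1824 CPM over the libraries, was almost all Vim, with 999 to 1776 CPM. Fn1, the next highest marker of that list, had 23.8 to 44.3 CPM. The part of these differences in the values below was not tested.

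By level, the 6 rows were not equally abundant. Rn45s had the highest count of all 23420 rows, with a mean of 224213 CPM over the 6 libraries, Malat1 the second highest with 22030 CPM, and Rmrp ranked 6 with 4658 CPM. Gas5 ranked 433 with 315 CPM, Neat1 ranked 2150 with 80.6 CPM and Snhg1 ranked 4498 with 29.6 CPM. The word abundant therefore fits Rn45s, Malat1 and Rmrp, while Neat1 and Snhg1 were of modest level. Among 2506 noncoding rows, Rn45s, Malat1 and Rmrp held ranks 1, 2 and 3, Gas5 held rank 8, Neat1 rank 29 and Snhg1 rank 58. Non-member rows above Gas5 were Xist, which silences the X chromosome, with 4243 CPM, the small nucleolar RNAs Snord15b with 1377 CPM and Snord17 with 1026 CPM, and Rpph1, the RNA subunit of RNase P, with 1220 CPM. The 6 rows together held 94.4% of the counts of noncoding rows. Of their 8236272 counts, Rn45s had 7339215 and the other 5 rows together had 897057.

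Counts per base change that order, because a long RNA gives more fragments than a short one. Per kilobase of the deposited row, Rn45s had 38439 CPM per kb, Rmrp 16939, Malat1 3155, Gas5 123, Snhg1 62.3 and Neat1 25.4. On that scale Rmrp ranked 2 of all rows, ahead of Malat1 at rank 11, and Snhg1 stood above Neat1. The lowest and highest libraries were 36604 and 43096 CPM per kb for Rn45s, 8543 and 22810 for Rmrp, 2133 and 4435 for Malat1, 75.4 and 173 for Gas5, 33.0 and 91.7 for Snhg1, and 17.8 and 33.0 for Neat1. Those ranges were separate for Rn45s, Rmrp and Malat1 from each other and from the rest. The ranges of Gas5 and Snhg1 overlapped, as did those of Snhg1 and Neat1, barely for that last pair. Within each of the 6 libraries, though, Gas5 was above Snhg1 and Snhg1 above Neat1 on this scale.

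**Figure D1:**
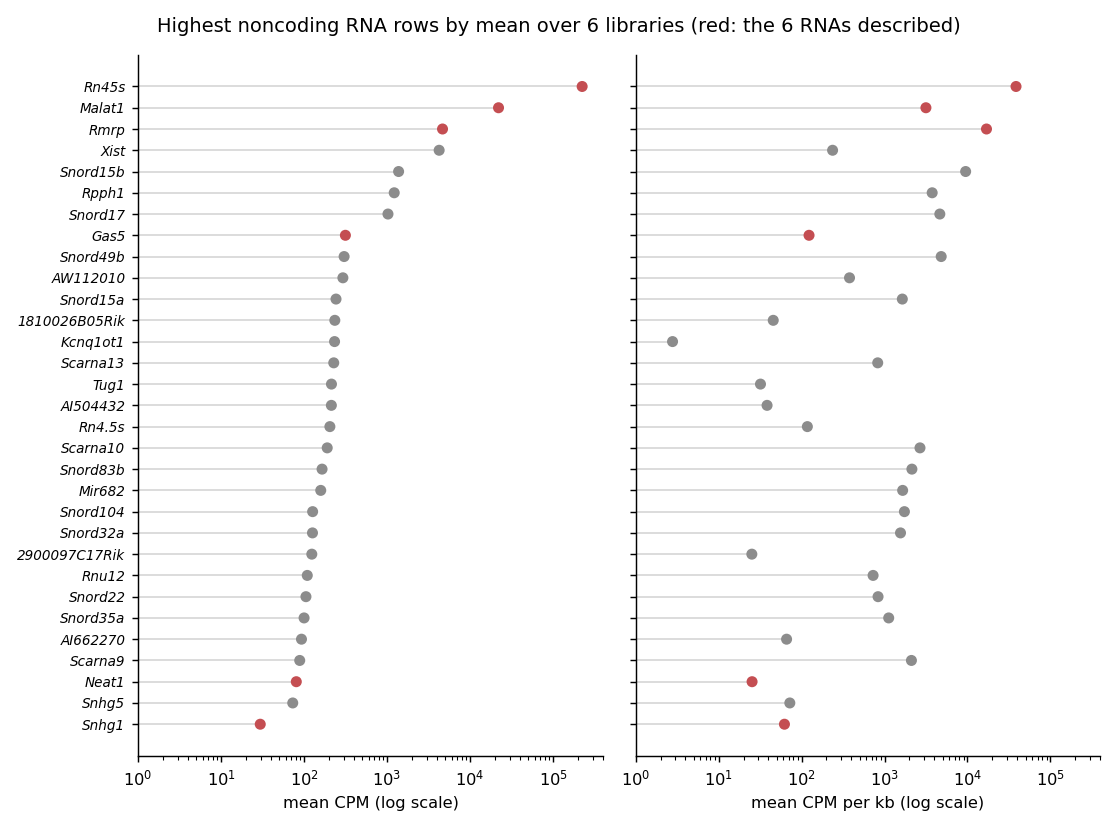
Mean level over 6 libraries of the 30 noncoding rows with the highest mean CPM, and of Snhg1, as CPM of all counts (left) and as CPM per kilobase of the row (right), both on log scales, with the 6 described RNAs in red. Rn45s leads both panels, at 224213 CPM and 38439 CPM per kb, and Rmrp passes Malat1 once length is taken into account.

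Anti-PD-1 treatment was not accompanied by a called difference in any of the 6 rows. All 6 together took 24.1%, 25.1% and 27.2% of counts in anti-PD-1 libraries 4, 5 and 6 and 25.4%, 24.4% and 24.7% in untreated libraries 1, 2 and 3. The means were 25.5% ± 1.55 in anti-PD-1 libraries and 24.8% ± 0.517 in untreated libraries (SD, n = 3 each), a difference smaller than the spread within the anti-PD-1 group. By edgeR's quasi-likelihood test none of the 6 had an adjusted p under 0.05. Of all 10352 tested genes 3 did (0.029%), and all 3 were higher with treatment. limma-voom called none of the 6, and DESeq2 none of the 5 for which it gave an adjusted p, which Snhg1 lacked. In the main edgeR fit Rmrp was the only row of the 6 with an unadjusted p under 0.05. By that fit 4.23% of all tested genes were higher and 4.07% lower at that level. With limma-voom the unadjusted p was 0.0173 for Rmrp and 0.0227 for Gas5 (adjusted p = 0.491 and 0.546). The log2 fold change was above 0 in 5 of the 6 rows, with a median of 0.19, and over all tested genes the median was 0.0016. In bulk RNA, a change in the share of cells that hold an RNA and a change in the amount per cell cannot be told apart.

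**Figure D2:**
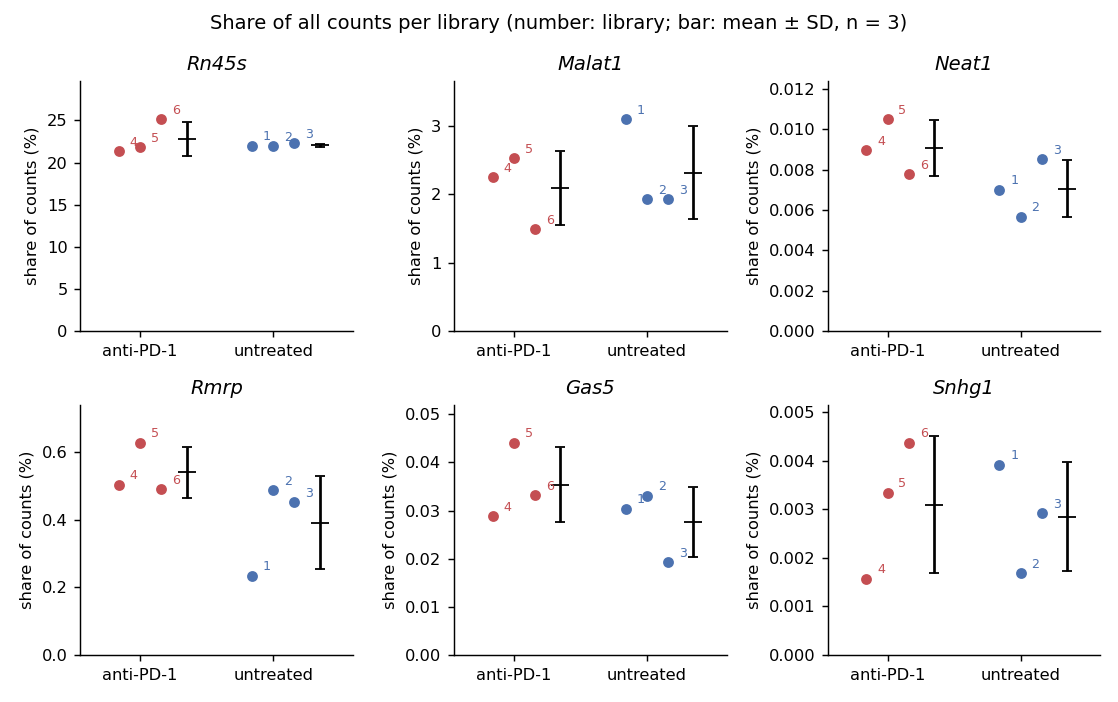
Share of all counts (percent, vertical axis from 0) of each of the 6 RNAs in each library, anti-PD-1 in red and untreated in blue, each point labelled with its library number, beside the mean and SD of 3 libraries in black. The groups overlap in 5 panels; in the Rmrp panel the lowest anti-PD-1 library, at 0.490%, lies just above the highest untreated library, at 0.487%.

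Rn45s, the row named for the precursor of ribosomal RNA, took more counts than any other row in every library. Its share was 21.4%, 21.8% and 25.1% in anti-PD-1 libraries 4, 5 and 6 and 22.0%, 21.9% and 22.3% in untreated libraries 1, 2 and 3. The untreated values lay close together, the anti-PD-1 values fell on both sides of them, and library 6 was the highest of all. The means were 22.8% ± 2.06 in anti-PD-1 libraries and 22.1% ± 0.178 in untreated libraries (SD, n = 3 each), 0.714 percentage points apart, with p = 1 in a two-sided exact permutation test whose smallest possible p is 0.1. Its log2 fold change was 0.02 ± 0.13 (SE, 95% interval -0.24 to 0.28, edgeR adjusted p = 0.983), so the interval excludes a change of 1 log2 unit either way. Without library 6 the log2 fold change was -0.06, and without untreated library 2 it was -0.0046. Because Rn45s takes so much of each library, the counts left for all other genes were 4104885, 3725272 and 3620627 in anti-PD-1 libraries and 5215097, 4271564 and 4528230 in untreated libraries. Whether ribosomal RNA was depleted before sequencing is not given in the sources used here. How much of the Rn45s count came from the precursor, and how much from ribosomal RNAs cut from it, was not tested.

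Among genes that make and process ribosomal RNA, edgeR called none, and DESeq2 called none of the 6 RNA polymerase I genes and 11 processing genes to which it gave an adjusted p. Of 20 RNA polymerase I genes tested, 12 had a log2 fold change above 0 and 8 below, with a median of 0.11, and 1 in each direction had an unadjusted p under 0.05. Twistnb, the RPA43 subunit, averaged 47.5 ± 6.10 CPM in anti-PD-1 libraries, against 72.2 ± 12.9 CPM in untreated libraries (log2 fold change -0.60 ± 0.22, edgeR adjusted p = 0.491). Cd3eap, another subunit, averaged 4.67 ± 2.55 CPM with treatment and 0.740 ± 0.703 CPM without (2.66 ± 0.92, adjusted p = 0.461). Polr1b, a large catalytic subunit, averaged 3.24 ± 1.92 CPM with treatment and 8.33 ± 5.91 CPM without (-1.36 ± 0.69, adjusted p = 0.625). Cd3eap and Polr1b averaged under 10 CPM in both groups. Of 29 rRNA processing and snoRNP genes, 13 were above 0 and 16 below, with a median of -0.05 and 1 in each direction at an unadjusted p under 0.05. Bop1, needed for maturation of the large ribosomal subunit, had 23.9, 28.2 and 29.1 CPM in anti-PD-1 libraries, against 10.3, 15.4 and 8.96 CPM in untreated libraries. Those groups did not overlap, as in 7.18% of all tested genes that were higher in every anti-PD-1 library and 6.44% that were lower, and the log2 fold change was 1.24 ± 0.36 (adjusted p = 0.383). Xrn2, a nuclear exonuclease, averaged 282 ± 26.9 CPM with treatment and 357 ± 24.5 CPM without (-0.34 ± 0.15, adjusted p = 0.556). Wdr12, a partner of Bop1, averaged 4.18 ± 4.36 CPM with treatment and 9.78 ± 2.08 CPM without (-1.25 ± 0.62, adjusted p = 0.607), also under 10 CPM in both groups.

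In the edgeR fit Rmrp had the smallest p of the 6 rows, and it did not pass the test after adjustment. Its share was 0.504%, 0.627% and 0.490% in anti-PD-1 libraries 4, 5 and 6 and 0.235%, 0.487% and 0.452% in untreated libraries 1, 2 and 3. Every anti-PD-1 library was above every untreated library, but library 6 and untreated library 2 were almost equal, with 95% binomial intervals of 0.484 to 0.496% and 0.482 to 0.493% (Wilson, counting error only), and untreated library 1 stood far below the rest. Groups did not overlap in share, on the higher side, in 7.43% of all tested genes and, on the lower side, in 5.98%. The means were 0.540% ± 0.0756 with treatment and 0.391% ± 0.137 without (SD, n = 3 each), a ratio of 1.38, with p = 0.1 in a two-sided exact permutation test, the smallest it can give. After TMM scaling Rmrp averaged 5363 ± 727 CPM with treatment and 3914 ± 1218 CPM without, with a log2 fold change of 0.45 ± 0.19 (95% interval 0.06 to 0.85), an unadjusted p of 0.0266, an edgeR adjusted p of 0.551 and a DESeq2 adjusted p of 0.385. Without untreated library 1 the log2 fold change was 0.22, and the other omissions gave 0.34 to 0.63.

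Rpph1, the RNA subunit of the sister enzyme RNase P, is also short and made by RNA polymerase III. It had 1029, 1310 and 1722 CPM in anti-PD-1 libraries, against 896, 1137 and 1216 CPM in untreated libraries, which overlap (log2 fold change 0.32 ± 0.17, edgeR adjusted p = 0.628). The number of Rmrp counts per Rpph1 count was 4.85, 4.73 and 2.84 in anti-PD-1 libraries and 2.81, 4.20 and 3.66 in untreated libraries. The ranges of the ratio overlapped, and library 6 paired the highest Rpph1 level with the lowest Rmrp share of its group. RNase P and RNase MRP share most of their proteins, and of the 9 genes tested for them 6 had a log2 fold change above 0 and 3 below, with a median of 0.13 and none called by edgeR. DESeq2 gave none of the 9 an adjusted p. Pop7, at 4.15 ± 0.758 CPM in anti-PD-1 libraries, against 1.12 ± 0.795 CPM in untreated libraries, was the member with an unadjusted p under 0.05 (1.86 ± 0.83, edgeR adjusted p = 0.569). Rpp30 averaged 15.2 ± 5.26 CPM with treatment and 8.35 ± 3.75 CPM without (0.85 ± 0.46, adjusted p = 0.650), and Pop5 averaged 7.40 ± 3.48 CPM with treatment and 3.17 ± 2.83 CPM without (1.20 ± 0.67, adjusted p = 0.663), both with overlapping groups. Pop7 and Pop5 averaged under 10 CPM in both groups.

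Of the 9 tested rows for small structured RNAs and rRNA entries, Rn45s and Rmrp included, 7 were above 0 and 2 below, with a median of 0.17, 1 in each direction at an unadjusted p under 0.05 and none called by edgeR, or by DESeq2 among the 6 with an adjusted p. The row with an unadjusted p under 0.05 on the lower side was Lars2, a protein-coding row of that list, which encodes the mitochondrial leucyl-tRNA synthetase. It averaged 7327 ± 467 CPM in anti-PD-1 libraries, against 9381 ± 2368 CPM in untreated libraries, with overlapping groups (-0.36 ± 0.15, edgeR adjusted p = 0.551). Untreated library 1 had 12040 CPM of Lars2, and the other libraries had 6834 to 8608 CPM. Other short noncoding rows had fold changes above 0 as well. Leaving Rmrp out, 108 tested noncoding rows had 300 bases or less, 86 of them small nucleolar or guide RNAs by RefSeq biotype, and 96 of the 108 had a log2 fold change above 0 and 12 below, with a median of 0.51, against 0.0016 over all tested genes. This class was chosen after its values were seen and was given no test. Groups did not overlap in 13 of the 108 on the higher side and 2 on the lower side, where the shares over all tested genes were 7.18% and 6.44%. Summed over the 108 rows, the level was 6106, 7668 and 7211 CPM in anti-PD-1 libraries, against 4360, 6127 and 3672 CPM in untreated libraries, so untreated library 2 lay within the anti-PD-1 range. The median was 0.87 without untreated library 2 and 0.25 without untreated library 3. How much of the Rmrp value goes with its length class was not tested.

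**Figure D3:**
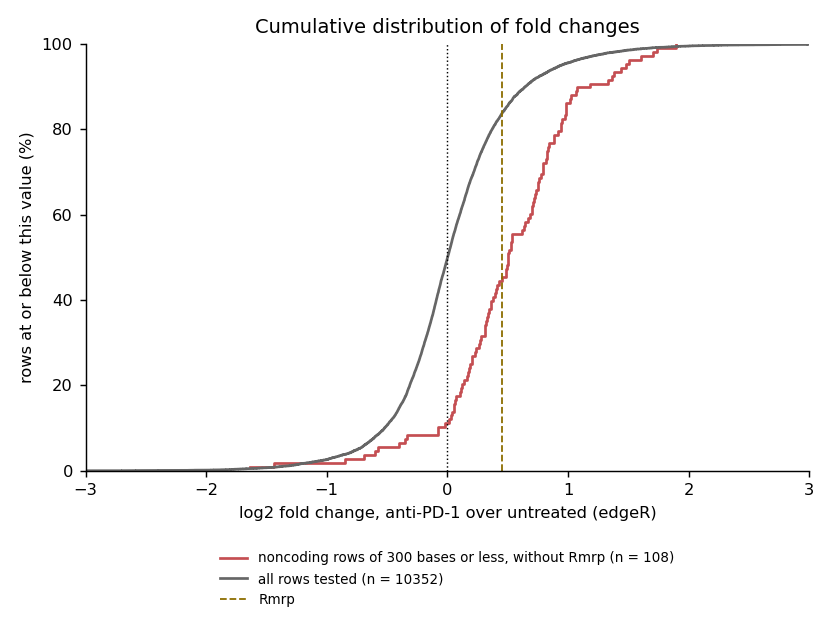
Cumulative percentage of rows (vertical axis) at or below each log2 fold change, anti-PD-1 over untreated (horizontal axis), for 108 noncoding rows of 300 bases or less without Rmrp in red and all 10352 tested rows in grey, with Rmrp as a dashed line at 0.45. The red curve lies to the right of the grey one over most of the range, with medians of 0.51 and 0.0016.

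Malat1 and Neat1, neighbors on chromosome 19, differed in level and in the direction of their means. Malat1 held 2.25%, 2.53% and 1.49% of counts in anti-PD-1 libraries 4, 5 and 6 and 3.10%, 1.92% and 1.93% in untreated libraries 1, 2 and 3. The highest value was that of untreated library 1 and the lowest that of anti-PD-1 library 6, and the groups overlapped. The means were 2.09% ± 0.538 with treatment and 2.32% ± 0.674 without (SD, n = 3 each, p = 0.7, two-sided exact permutation test), and the log2 fold change was -0.19 ± 0.25 (95% interval -0.75 to 0.36, edgeR adjusted p = 0.869). It was 0.13 without untreated library 1 and -0.0026 without anti-PD-1 library 6, so only the first omission reversed it. The difference in share was 0.160 and 0.0700 percentage points without the same libraries, so either omission changed the sign of that difference. Neat1 had 467, 500 and 375 counts in anti-PD-1 libraries and 468, 310 and 495 counts in untreated libraries. As shares these were 0.00895%, 0.0105% and 0.00775% with treatment and 0.00700%, 0.00567% and 0.00850% without, so untreated library 3 lay inside the anti-PD-1 range. The mean share was 0.00906% ± 0.00137 with treatment and 0.00705% ± 0.00142 without, a ratio of 1.28 (p = 0.2, two-sided exact permutation test), and the log2 fold change was 0.33 ± 0.21 (95% interval -0.10 to 0.76, edgeR adjusted p = 0.710), or 0.19 without untreated library 2. There were 251, 241 and 192 Malat1 counts per Neat1 count in anti-PD-1 libraries and 442, 340 and 227 in untreated libraries, which overlap.

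Among the proteins of the nuclear bodies these RNAs belong to, edgeR called none, and DESeq2 called none of the 19 paraspeckle and 22 speckle genes to which it gave an adjusted p. Of 24 paraspeckle protein genes, 5 had a log2 fold change above 0 and 19 below, with a median of -0.11 and none at an unadjusted p under 0.05. Matr3, an RNA-binding protein of the nuclear matrix, averaged 391 ± 13.3 CPM in anti-PD-1 libraries, against 466 ± 77.4 CPM in untreated libraries (-0.25 ± 0.15, edgeR adjusted p = 0.687). Hnrnpa1 averaged 6.18 ± 1.84 CPM with treatment and 11.9 ± 4.54 CPM without (-0.96 ± 0.51, adjusted p = 0.639), and Taf15 averaged 91.7 ± 27.2 CPM with treatment and 119 ± 31.6 CPM without (-0.37 ± 0.22, adjusted p = 0.692). Of 24 nuclear speckle and SR protein genes, 6 were above 0 and 18 below, with a median of -0.07 and none at an unadjusted p under 0.05. Srrm2, a scaffold of speckles, had 999, 1048 and 983 CPM in anti-PD-1 libraries, against 884, 916 and 871 CPM in untreated libraries. Those groups did not overlap, as in 7.18% of all tested genes on the higher side, and the log2 fold change was only 0.18 ± 0.13 (edgeR adjusted p = 0.747). The splicing regulators Srsf6 and Rbm25 had log2 fold changes of -0.28 ± 0.20 and -0.21 ± 0.17, with overlapping groups. Matr3, Hnrnpa1, Taf15, Srsf6 and Rbm25 were all highest in untreated library 1, which stood apart in the multidimensional scaling. Srsf6 had 173, 104 and 114 CPM in untreated libraries 1, 2 and 3, against 98.0, 113 and 113 CPM in anti-PD-1 libraries. Not all genes ran so, and Nono and Hnrnpr were lowest in untreated library 1. How much of the direction of these lists goes with that library was not tested.

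Of 17 other long noncoding RNAs tested, Malat1 and Neat1 included, 10 had a log2 fold change above 0 and 7 below, with a median of 0.09, and none was called by edgeR, or by DESeq2 among the 8 with an adjusted p. An unadjusted p under 0.05 was found for 2 of the 17, both higher, where 4.23% of all tested genes were higher and 4.07% lower at that level. Ftx, from the X inactivation center, had 18.6, 12.7 and 8.26 CPM in anti-PD-1 libraries, against 6.90, 2.33 and 3.55 CPM in untreated libraries (1.61 ± 0.54, edgeR adjusted p = 0.448). Tug1 had 258, 254 and 205 CPM with treatment and 204, 176 and 188 CPM without (0.34 ± 0.16, adjusted p = 0.583). In both the groups did not overlap, as in 7.18% of all tested genes on the higher side, though the nearest libraries of Tug1 were almost equal. Xist, the other long RNA of high level, averaged 4257 ± 538 CPM in anti-PD-1 libraries, against 4239 ± 126 CPM in untreated libraries, with a log2 fold change of 0.01 ± 0.13. Oip5os1, listed as 1700020I14Rik, averaged 45.8 ± 6.62 CPM with treatment and 62.8 ± 8.62 CPM without (-0.46 ± 0.23, adjusted p = 0.613). Kcnq1ot1, an imprinted antisense RNA, and Chaserr, listed as 1810026B05Rik, had log2 fold changes of 0.17 ± 0.17 and -0.02 ± 0.22.

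Of the host genes, Snhg1 varied more between libraries than between groups. For Gas5 the difference of mean shares, 0.00780 percentage points, was about as large as the SD within the groups. Gas5 had 1505, 2100 and 1607 counts in anti-PD-1 libraries 4, 5 and 6 and 2033, 1809 and 1122 counts in untreated libraries 1, 2 and 3. As shares these were 0.0288%, 0.0441% and 0.0332% with treatment and 0.0304%, 0.0331% and 0.0193% without. Library 5 was high, untreated library 3 was low, and the other 4 lay close together. The means were 0.0354% ± 0.00783 with treatment and 0.0276% ± 0.00732 without (SD, n = 3 each, p = 0.4, two-sided exact permutation test), and the log2 fold change was 0.33 ± 0.19 (95% interval -0.07 to 0.72, edgeR adjusted p = 0.686). It was 0.11 without untreated library 3 and 0.14 without library 5. Snhg1 had 82, 159 and 211 counts in anti-PD-1 libraries and 262, 92 and 170 counts in untreated libraries, or 0.00157%, 0.00334% and 0.00436% of counts with treatment and 0.00392%, 0.00168% and 0.00292% without. The highest share was 2.78 times the lowest, and both of those libraries were anti-PD-1 ones. The mean share was 0.00309% ± 0.00141 with treatment and 0.00284% ± 0.00112 without (p = 0.8, two-sided exact permutation test). The log2 fold change was 0.05 ± 0.36 (95% interval -0.69 to 0.78, edgeR adjusted p = 0.984), the widest interval of the 6.

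The snoRNA rows inside the spans of both host genes can be set beside them. Snord47, within Gas5 but outside its counted exons, had 324, 407 and 260 counts in anti-PD-1 libraries and 321, 373 and 163 counts in untreated libraries. The Gas5 count per Snord47 count ran from 4.65 to 6.18 in anti-PD-1 libraries and from 4.85 to 6.88 in untreated libraries. Snord22, within Snhg1, had 624, 816 and 773 counts in anti-PD-1 libraries and 171, 732 and 129 counts in untreated libraries. Untreated libraries 1 and 3 were low and untreated library 2 was level with the treated ones, so the groups overlapped for Snord22 (log2 fold change 1.33 ± 0.67, edgeR adjusted p = 0.686). Snord22 counts per Snhg1 count were 7.61, 5.13 and 3.66 with treatment and 0.653, 7.96 and 0.759 without, so the snoRNA and the spliced host did not keep a fixed ratio across libraries.

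Of 16 snoRNA host genes tested, Gas5 and Snhg1 included, 11 had a log2 fold change above 0 and 5 below, with a median of 0.11, 1 higher at an unadjusted p under 0.05 and none called by edgeR, or by DESeq2 among the 3 with an adjusted p. Snhg12 was that gene, with 9.12, 11.2 and 13.0 CPM in anti-PD-1 libraries, against 4.97, 4.12 and 5.75 CPM in untreated libraries (1.15 ± 0.51, edgeR adjusted p = 0.560). Snhg7 lay on the other side, with 0.570, 0.207 and 2.89 CPM with treatment and 3.37, 4.30 and 4.23 CPM without (-1.69 ± 0.90, adjusted p = 0.640). Its level was under 10 CPM in every library. The more highly counted hosts Snhg5 and Snhg8 had log2 fold changes of -0.29 ± 0.24 and -0.32 ± 0.25, with overlapping groups. Of 14 genes for nonsense-mediated decay, the pathway that degrades the spliced host RNAs, 5 were above 0 and 9 below, with a median of -0.17, none at an unadjusted p under 0.05 and none called by edgeR, or by DESeq2 among the 10 with an adjusted p. Casc3, of the exon junction complex, averaged 45.9 ± 10.3 CPM in anti-PD-1 libraries, against 33.7 ± 3.72 CPM in untreated libraries (0.45 ± 0.26, edgeR adjusted p = 0.684). Smg6, the endonuclease of the pathway, averaged 111 ± 12.1 CPM with treatment and 135 ± 37.4 CPM without (-0.29 ± 0.20, adjusted p = 0.739), and Upf3a averaged 25.8 ± 5.84 CPM with treatment and 34.0 ± 10.6 CPM without (-0.42 ± 0.31, adjusted p = 0.757).

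**Figure D4:**
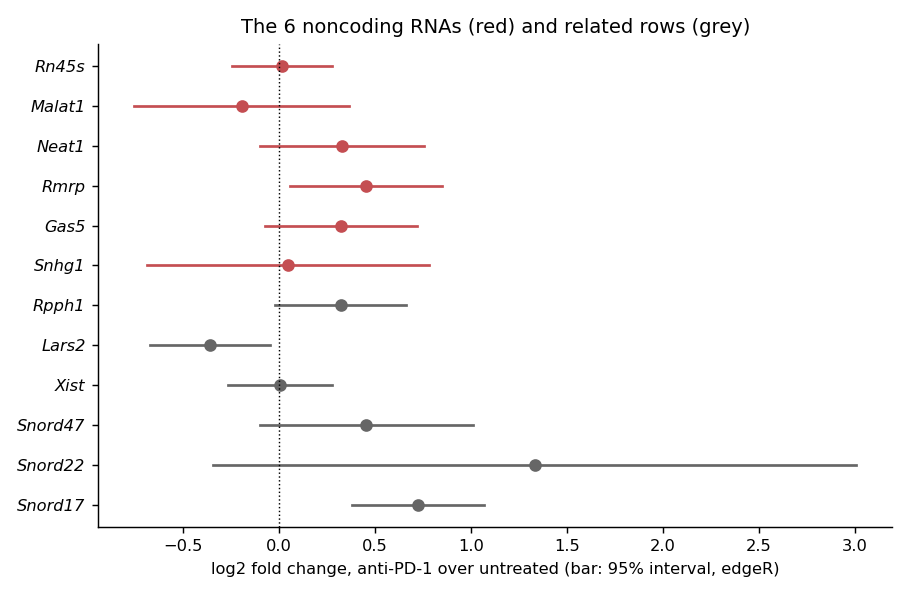
Log2 fold change, anti-PD-1 over untreated, with its 95% interval from the edgeR fit (horizontal axis) for the 6 described RNAs in red and 6 related rows in grey. The intervals of Rn45s, Malat1, Neat1, Gas5 and Snhg1 include 0, and that of Rmrp runs from 0.06 to 0.85 before any adjustment for the number of genes.

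The genes whose log2 CPM ran most like each RNA over the 6 libraries were taken from 7206 tested genes with a mean of at least 10 CPM. With 6 points that share depth and scaling, and with so many genes to choose from, these Pearson correlations are a description. Rn45s ran most like Psmf1 (r = 0.983), and 18 genes had r above 0.9 with it. Malat1 ran most like Usp15 (0.993) and Ino80c (0.988), among 107 such genes. Neat1 ran most like Zdhhc5 (0.998) and Lpar6 (0.993), among 66. Rmrp ran most like Git1 (0.997) and Tbc1d20 (0.993), among 226, and Git1 shared its low point, with 14.8 CPM in untreated library 1 and 29.2 to 40.7 CPM in the other libraries. Gas5 ran most like Tango6 (0.981) and Ywhaq (0.975), among 39. Snhg1 ran most like Bmyc (0.993) and Cyth3 (0.971), among 35. Neat1, Rmrp and Gas5 all had their highest share in library 5, and Rn45s and Snhg1 had theirs in library 6.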

How the data were processed

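RNA-seq of sorted tumor Tregs was deposited as raw counts per gene. Per the file headers, the authors counted read pairs with featureCounts 1.5.2 against a UCSC gene file for mm10, with strand setting 1, on alignments named bbmap. The command holds no option to count multiply mapped fragments or fragments that overlap 2 rows. bcl2fastq, FastQC and DESeq2 appear in the submitters' processing notes, and no source used here gives further settings of alignment or read filtering. The count table has 23420 rows. No symbol in it begins with mt-, the prefix of genes of the mitochondrial genome, so none of those were analysed here. A column without a name (1 column, 6 values) was not used, and 27 symbols that had been turned into dates were kept in the totals.

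Shares and CPM per library were computed from all counts, with Wilson intervals at 95%, which cover counting error only. Levels per kilobase used the row lengths in the table. edgeR 4.0.16 in R 4.3.3 (filterByExpr with a count of 10 and a total of 15, TMM, glmQLFit with robust shrinkage, glmQLFTest, two-sided, treatment as the only term) was fitted to the 10352 genes that passed, which held 99.8% of counts, with Benjamini-Hochberg adjustment over all of them at 0.05. Cell type marker levels were CPM of all counts, and CPM in the other comparisons between groups were TMM-scaled. After each ± stands the SD of 3 libraries for a CPM or a share. For a log2 fold change it is the SE of the fit. Shares were compared by a two-sided exact permutation test. The labels give no batch. Library pairs differed by a chi-square of 9.71 to 30.8 per degree of freedom, and none was taken for a duplicate.

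The members and the lists were chosen with earlier results of these data known. The text names the 6 members, from each list the 3 tested genes of smallest p and, in the first 3 lists, also the 4 of highest mean CPM, and for each member the 2 genes of highest correlation. A gene that this rule names is not reported here. The short noncoding rows, Snord47, Snord22 and other snoRNAs named alone, and the comparison of ratios were chosen after their values were seen. Of 246 list and marker entries, 20 had no matching symbol and 19 were matched by a synonym. Biotypes and promoter windows came from RefSeq (GRCm38.p6), where 3 of the 6 members had a window, and snoRNA entries and the Rmrp transcript from GENCODE M21. Alternatives were DESeq2 1.42.0, limma-voom (limma 3.58.1) with quality weights, other scalings, filters and denominators, and leaving out each library in turn.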

Additional observations from a re-analysis of the deposited data

How the results depend on the processing

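No paired analysis was possible because the groups share no replicate numbers. The count of genes called by edgeR was 3, all higher with treatment, and became 5 with upper-quartile factors, 7 (6 higher, 1 lower) with raw library totals, 52 (36 higher, 16 lower) without a filter, 34 (21 higher, 13 lower) with DESeq2 and 12 (8 higher, 4 lower) with limma-voom and quality weights. Leaving out each library in turn gave 1 to 19 genes, 19 without untreated library 1 and 1 without anti-PD-1 library 5. Of 83 alternative values for the 6 RNAs 82 had an adjusted p, of which none passed the threshold, and 77 of the 83 kept their direction. The log2 fold changes that reversed were those of Rn45s if anti-PD-1 library 6 (-0.0626) or untreated library 2 (-0.0046) was left out, Malat1 without untreated library 1 (0.13), and Snhg1 if anti-PD-1 library 5 (-0.0096), anti-PD-1 library 6 (-0.29) or untreated library 2 (-0.22) was. Over all omissions the log2 fold change ran from -0.0626 to 0.0632 for Rn45s, from -0.35 to 0.13 for Malat1, from 0.19 to 0.45 for Neat1, from 0.22 to 0.63 for Rmrp, from 0.11 to 0.45 for Gas5 and from -0.29 to 0.42 for Snhg1. The adjusted p of Rmrp ran from 0.0702 without a filter to 0.940 without anti-PD-1 library 5. The difference in share moved by less than 1 within-group SD in all 58 alternatives. Leaving out 1 of 3 libraries cannot move it by a whole SD, so for the omissions this is no measure of stability. The difference in share kept its direction in 53 of the 58. It changed sign for Rn45s without anti-PD-1 library 6, for Malat1 without untreated library 1 or anti-PD-1 library 6, and for Snhg1 without anti-PD-1 library 6 or untreated library 2. Over the omissions it ran from -0.466 to 1.43 percentage points for Rn45s, from -0.451 to 0.160 for Malat1 and from -0.000386 to 0.00101 for Snhg1. The causes were not tested. Snhg1 had the lowest counts of the 6 RNAs, at 82 to 262 per library.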

Other observations

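Small nucleolar RNAs as a RefSeq class held 0.502%, 0.636% and 0.617% of counts in anti-PD-1 libraries 4, 5 and 6 and 0.311%, 0.500% and 0.278% in untreated libraries 1, 2 and 3. Untreated library 2 was almost level with library 4, and the other untreated libraries were lower. The C/D snoRNA Snord17 was the short row with the smallest p. It had 1167, 1248 and 1406 CPM in anti-PD-1 libraries, against 535, 853 and 923 CPM in untreated libraries (log2 fold change 0.73 ± 0.17, edgeR adjusted p = 0.136, DESeq2 adjusted p = 0.0216). Those groups do not overlap, as in 7.18% of all tested genes on the higher side. DESeq2 thus called 1 of the 26 short noncoding rows to which it gave an adjusted p, and 34 of all 10352 tested genes (0.328%), of which 4331 had one. edgeR called none of the 108, with 19 higher and 3 lower at an unadjusted p under 0.05, where the shares over all tested genes were 4.23% and 4.07%. Snord15b and Snord15a, a pair of related C/D snoRNAs, had different fold changes. Snord15b had 1418, 1871 and 1825 CPM in anti-PD-1 libraries, against 963, 1472 and 703 CPM in untreated libraries (0.70 ± 0.21, edgeR adjusted p = 0.424), and Snord15a averaged 248 ± 12.9 CPM in anti-PD-1 libraries, against 239 ± 56.0 CPM in untreated libraries (0.05 ± 0.17). The difference between Snord15b and Snord15a was not tested, and these rows were chosen after their values were seen.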
